A study of Mus musculus with 12 samples.

Results

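H4K20me3 domains at the distal ends of the mouse autosomes, taken as the domains that ended within the last 5 Mb of chromosomes 1 to 19 in build mm10, numbered 810 of the 28210 domains in the deposited list. They made up 3.15% of the 25734 autosomal domains. The choice used position alone. The last domain inside the limit, on chromosome 10, ended 4978 kb from the chromosome end and was 3.60 kb wide, and the first outside it, on chromosome 7, ended at 5006 kb and was 1.05 kb wide. The line, dTKO, consists of ES cells from mouse with the genotype Suv39h1fl/fl, Suv39h2-/-, Setdb1fl/fl, which all samples share, and these 3 genes encode histone H3 lysine 9 methyltransferases. All 12 libraries carry the treatment auxin (100 μg/ml) and dTAG13 (0.5 μM), for 0, 12, 24 or 48 h with 3 replicates each. The labels do not say which protein each agent removes. The list names no sample or time and holds no signal, so every value below describes 1 list, without replicate error and without a test, and the change over time was not analysed here.

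H4K20me3, trimethylation of lysine 20 on histone H4, is a mark of silent chromatin. It is laid down chiefly by the SUV420H enzymes, which HP1 proteins bring to chromatin that carries H3K9 methylation. The mark is known for pericentromeric satellite repeats, telomeres and subtelomeric chromatin, and for retrotransposons in embryonic stem cells. Mouse autosomes are acrocentric, with the centromere close to 1 tip, so the distal end is the end of the long arm.

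Few promoters lay within these domains. Of 1744 promoter windows in the last 5 Mb (250 bases before to 50 after a RefSeq start site, GRCm38.p6, the same assembly as mm10), 25 overlapped a domain by 1 base or more (1.43%). The background over all autosomal windows was 1.89%. Among the 25 were 11 windows of protein-coding genes and 14 of long noncoding RNA genes. The windows of 7 protein-coding genes lay wholly inside a domain. Their sequences are printed because these are the protein-coding start sites at the chromosome ends whose windows a domain spans completely. Another 12 windows, of long noncoding RNA genes, also lay wholly inside a domain and are not printed. Each line gives the 250 bases before the start, read 5′ to 3′ on the gene's strand, with CG dinucleotides, the sites of DNA methylation, in capitals.
Sycp2: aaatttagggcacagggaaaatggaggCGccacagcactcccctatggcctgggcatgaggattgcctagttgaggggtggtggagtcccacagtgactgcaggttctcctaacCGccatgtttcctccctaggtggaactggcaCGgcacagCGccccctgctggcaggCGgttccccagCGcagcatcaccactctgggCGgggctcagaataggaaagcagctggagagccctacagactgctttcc
Tuba3b: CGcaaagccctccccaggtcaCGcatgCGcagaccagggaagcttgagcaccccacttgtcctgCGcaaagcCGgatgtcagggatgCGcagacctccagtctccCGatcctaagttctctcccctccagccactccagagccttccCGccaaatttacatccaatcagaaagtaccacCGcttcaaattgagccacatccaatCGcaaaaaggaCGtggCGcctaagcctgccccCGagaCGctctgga
Ccdc91: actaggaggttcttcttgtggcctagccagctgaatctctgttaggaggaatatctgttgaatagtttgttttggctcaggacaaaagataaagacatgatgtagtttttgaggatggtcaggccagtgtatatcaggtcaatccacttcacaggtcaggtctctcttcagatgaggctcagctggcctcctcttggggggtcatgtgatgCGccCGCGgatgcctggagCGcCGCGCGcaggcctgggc
Map10: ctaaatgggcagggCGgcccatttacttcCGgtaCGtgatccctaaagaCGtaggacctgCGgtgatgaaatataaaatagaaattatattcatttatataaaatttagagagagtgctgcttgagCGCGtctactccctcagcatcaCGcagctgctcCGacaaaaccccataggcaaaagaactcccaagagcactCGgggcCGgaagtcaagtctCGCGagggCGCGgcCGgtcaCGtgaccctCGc
Zfp445: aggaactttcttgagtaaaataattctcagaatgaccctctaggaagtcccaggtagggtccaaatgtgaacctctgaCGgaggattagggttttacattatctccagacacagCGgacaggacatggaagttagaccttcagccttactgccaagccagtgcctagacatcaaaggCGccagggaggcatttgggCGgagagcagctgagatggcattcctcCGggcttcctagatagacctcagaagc
Timm8a2: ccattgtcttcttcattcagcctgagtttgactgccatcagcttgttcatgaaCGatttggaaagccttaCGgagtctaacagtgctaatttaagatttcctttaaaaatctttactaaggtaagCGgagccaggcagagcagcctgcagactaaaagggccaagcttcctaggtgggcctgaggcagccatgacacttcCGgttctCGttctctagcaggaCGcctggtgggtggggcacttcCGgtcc
Tmprss12: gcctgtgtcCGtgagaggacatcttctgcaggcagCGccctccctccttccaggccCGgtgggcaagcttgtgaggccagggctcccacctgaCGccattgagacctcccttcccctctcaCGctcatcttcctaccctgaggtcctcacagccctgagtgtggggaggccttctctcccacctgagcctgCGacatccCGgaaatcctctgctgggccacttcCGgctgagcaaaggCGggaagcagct

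Sycp2 encodes a component of the synaptonemal complex, which joins homologous chromosomes in meiosis. Its printed stretch is chr2:178407659-178407908 on the minus strand, in a domain of 1.20 kb (chr2:178406851-178408050). Tuba3b encodes a testis alpha-tubulin. Its stretch, chr6:145615713-145615962 on the plus strand, lay in a domain of 1.05 kb. Tmprss12 encodes a serine protease of male germ cells. Its stretch, chr15:100280587-100280836 on the plus strand, lay in a domain of 1.65 kb. Zfp445 encodes a KRAB zinc finger protein that helps to maintain imprints. Its stretch, chr9:122866007-122866256 on the minus strand, lay in a domain of 1.65 kb. The start site used is 20.8 kb inside the annotated gene body, counted from its 5′ end, so it is not the outermost start. Map10 encodes a microtubule-associated protein, and its stretch was chr8:125669568-125669817 on the plus strand. Timm8a2 encodes a small protein of mitochondrial import, with the stretch chr14:122034424-122034673 on the plus strand, at a start site 7.00 kb inside the annotated body. Ccdc91 encodes a protein of Golgi transport, with the stretch chr6:147475621-147475870 on the plus strand. The Ccdc91 window shared a domain of 0.900 kb with a window of Gm6288, a noncoding RNA gene read from the other strand.

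All 7 domains were short, from 0.900 to 1.65 kb, against a median of 2.85 kb over the 810. The stretches held from 5 CG dinucleotides, in Zfp445, to 18, in Map10. The median was 9 over the 11 protein-coding windows at the ends that met a domain and 12 over those that did not. The motif CACGTG, an E-box, searched on both strands, was found in 1 of the 7 (Map10). Over the same 250 bases it was found in 6.69% of all autosomal protein-coding windows and 7.61% of those at the ends. The motif GCGGGA, part of E2F sites, was found on either strand in 2 of the 7 (Tuba3b and Tmprss12). It was found in 22.2% of all autosomal protein-coding windows and 27.4% of those at the ends. The 7 stretches were chosen after their overlap was seen.

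Distal ends held fewer domains per Mb and less domain sequence than the rest of the autosomes taken as a whole. The size of single domains was much the same. The 810 domains covered 3221 kb, or 3.39% of 95 Mb, against 4.27% of the rest (from 3 Mb, where sequence begins, to the start of the last 5 Mb). The last 10 Mb together had 3.01%, so the 5 Mb next to the ends did not have a higher mean share than the ends. A share below that of the whole rest was thus not particular to the last 5 Mb. There were 8.53 domains per Mb at the ends and 10.8 in the rest. The median width was 2.85 kb in both, with quartiles of 1.65 and 4.35 kb at the ends and 1.80 and 4.65 kb elsewhere. Domains of 10 kb or more made up 6.91% at the ends (56 domains) and 6.60% elsewhere. They held 28.9% of the domain sequence at the ends and 24.4% elsewhere. The positions of all 810 domains are drawn with the protein-coding genes in the map of the 19 ends.

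**Figure D1:**
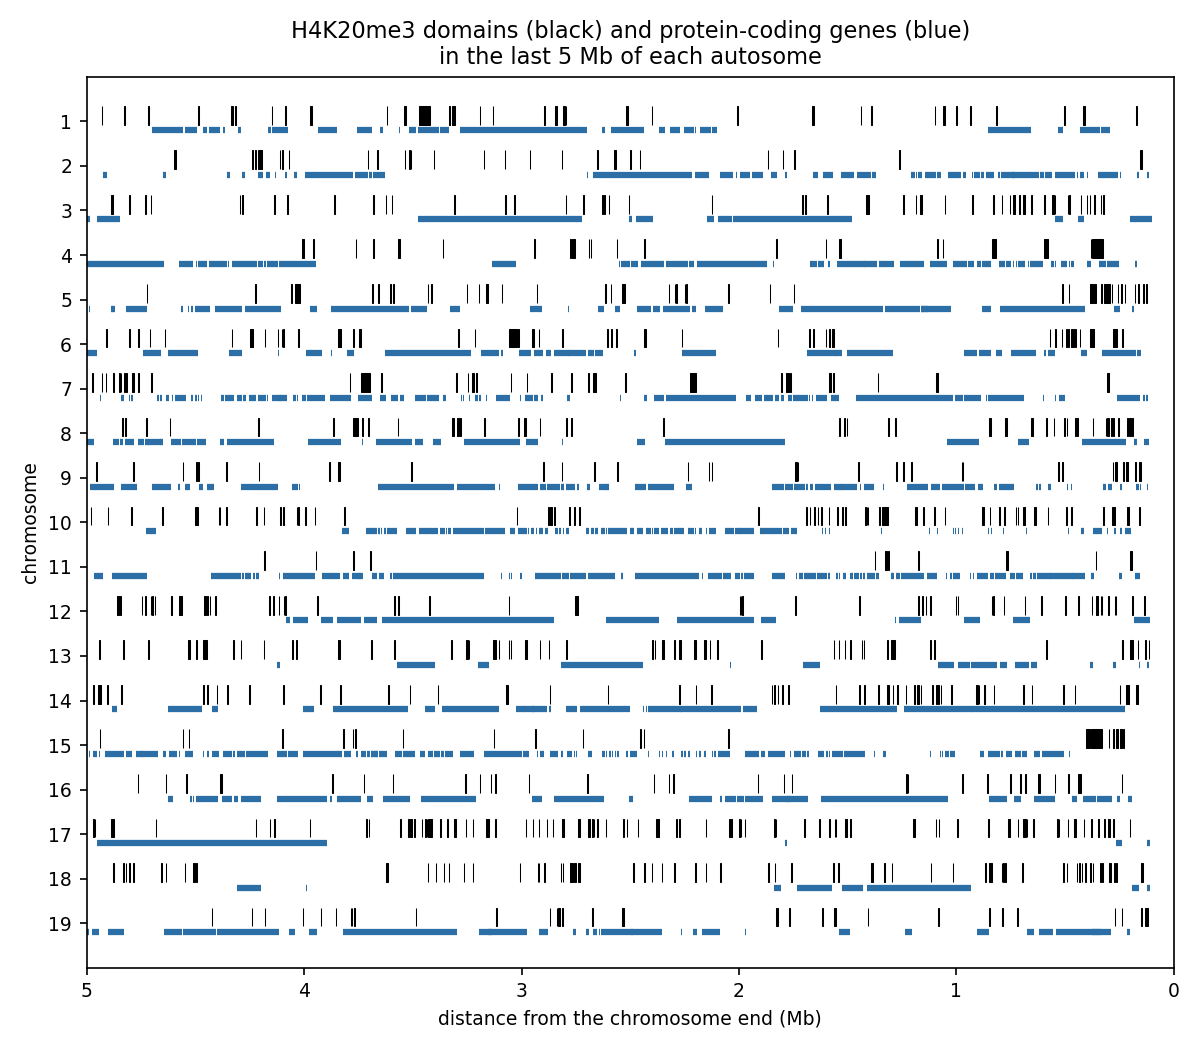
Position of the 810 H4K20me3 domains (black) and of protein-coding genes (blue) by distance from the chromosome end in Mb, 1 row per autosome, with each domain drawn at its width plus a thin outline. The end of chromosome 17 has 85 domains and 4 protein-coding genes and that of chromosome 11 has 12 domains and 108 genes, while that of chromosome 10, with the most genes (162), has 60 domains.

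By chromosome, the covered share of the last 5 Mb ran from 0.843% on chromosome 11 to 6.19% on chromosome 17, with a median of 3.69%. It was below the share of the rest of the same chromosome on 15 of 19 autosomes and above it on 4, namely 6, 10, 17 and 18. On chromosome 18 the end had 4.58% against 3.39% in the rest, the highest ratio (1.35). On chromosome 10 it had 4.50% against 3.63%, on chromosome 17 6.19% against 5.03%, and on chromosome 6 4.91% against 4.52%. The lowest ratio was that of chromosome 11, 0.843% against 2.83% (0.298), followed by chromosome 16, 1.82% against 3.98% (0.458), and chromosome 4, 2.96% against 5.50% (0.539). The plot of end and rest shows these pairs.

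**Figure D2:**
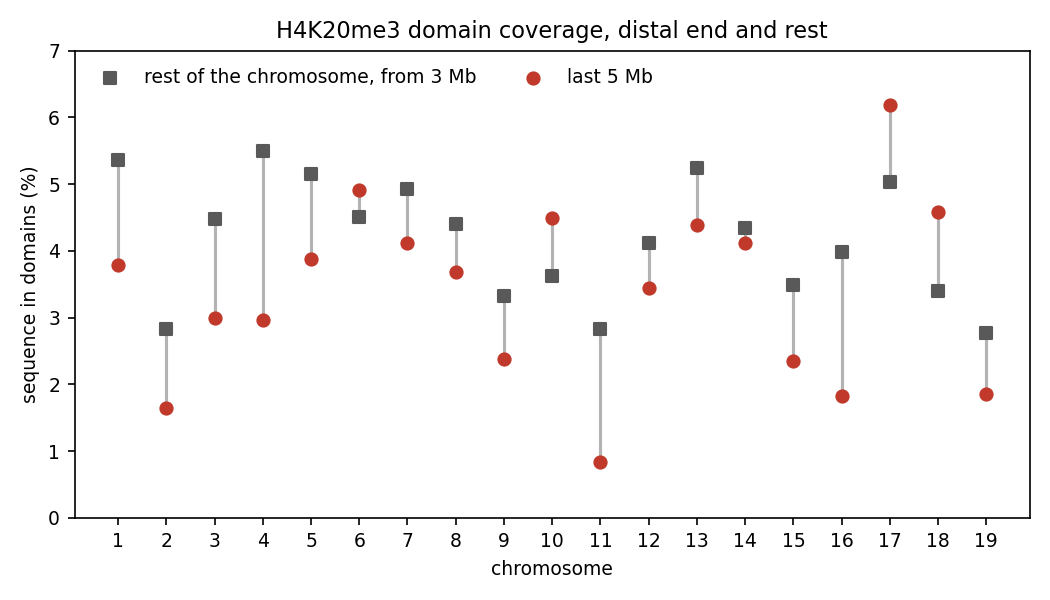
Share of sequence in H4K20me3 domains (%) in the last 5 Mb (circles) and in the rest of the same chromosome from 3 Mb (squares), with a line joining the pair of each autosome. The circle lies below the square on 15 of 19 autosomes, and above it on chromosomes 6, 10, 17 and 18.

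Each end was also placed among successive 5 Mb windows of its own chromosome, counted back from the end. The end of chromosome 18 ranked 3 from the top of 17 windows and that of chromosome 17 ranked 4 of 18. The end of chromosome 16 ranked 18 of 19 and that of chromosome 11 ranked 21 of 23. On 8 of 19 autosomes the last window lay above the median of the other windows. The comparison with the rest is thus more one-sided than the placement among windows. At the opposite end, the first 5 Mb after the unsequenced start had a mean of 7.59% in domains, with a range of 0.447% (chromosome 14) to 14.6% (chromosome 3). The distal end was lower than that stretch on 16 of 19 autosomes.

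Within the distal end, domain sequence was most abundant close to the tip. The last 1 Mb held 212 of the 810 domains and had 5.19% of its sequence in them. The next 4 steps of 1 Mb had 2.83%, 2.84%, 3.36% and 2.73%, and the 4 Mb together had 2.94%. In the last 1 Mb there were 11.2 domains per Mb, against 7.87 in those 4 Mb. The last 1 Mb exceeded the 4 Mb before it on 15 of 19 autosomes and the rest of the chromosome on 12. It was the lower of the pair on chromosomes 1, 2, 7 and 13. The contrast was greatest on chromosome 15, with 9.45% in the last 1 Mb against 0.581% before it, and on chromosome 4, with 8.78% against 1.51%. Chromosome 7 went the other way, with 0.465% against 5.03%. The contrasts on chromosomes 15 and 4 rested on few, wide domains. The last 1 Mb of chromosome 15 held 7 domains, including those of 49.95 and 19.1 kb described below. That of chromosome 4 held 4, including domains of 53.1, 18.3 and 15.3 kb. Domains were not more frequent there, since the last 5 Mb of chromosome 4 had 4.40 per Mb. This division of the 5 Mb was chosen after the values were seen.

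**Figure D3:**
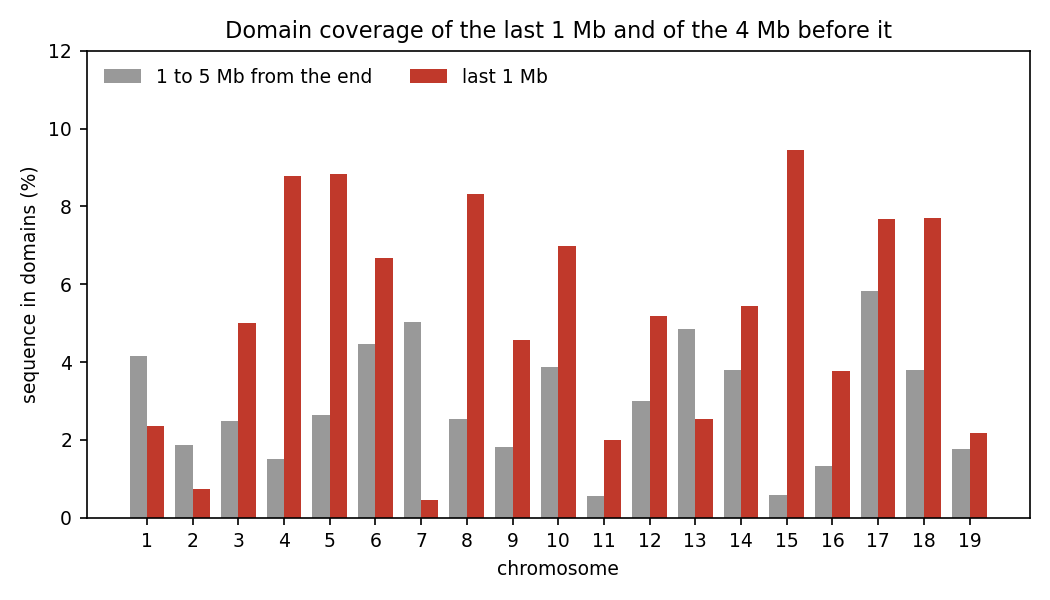
Share of sequence in domains (%) in the last 1 Mb (red) and in the stretch from 1 to 5 Mb before the end (grey) of each autosome. The red bar is the higher on 15 of 19 autosomes and is highest on chromosome 15, at 9.45%.

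In steps of 0.5 Mb, the mean over 19 autosomes was 6.98% for the last step, in which every autosome had some domain sequence (0.930 to 18.9%). The other steps of the last 5 Mb had means of 1.95 to 3.72%, and those from 5 to 20 Mb had 1.87 to 4.43%. The high last step includes a tip without any feature, since the last annotated gene ended 101 to 225 kb, and the last domain 112 to 325 kb, before the chromosome end. Protein-coding gene bodies took 26.3% of the last 0.5 Mb and 35.8 to 55.0% of the other steps of the last 5 Mb. The featureless tip was counted as part of the last step, which lowers both its domain share and its gene share. Whether the tip is sequenced could not be read here, so the low gene share may partly reflect missing sequence. Outside protein-coding gene bodies alone, the last 1 Mb had 6.92% in domains, against 3.42 to 4.83% in the 4 steps before it. Wide domains were also more frequent at the tip. Of the 212 domains in the last 1 Mb, 23 (10.8%) were 10 kb or wider, against 33 of 598 (5.52%) before it. With domains under 10 kb only, the last 1 Mb had 3.13% and the 4 Mb before it 2.23%.

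**Figure D4:**
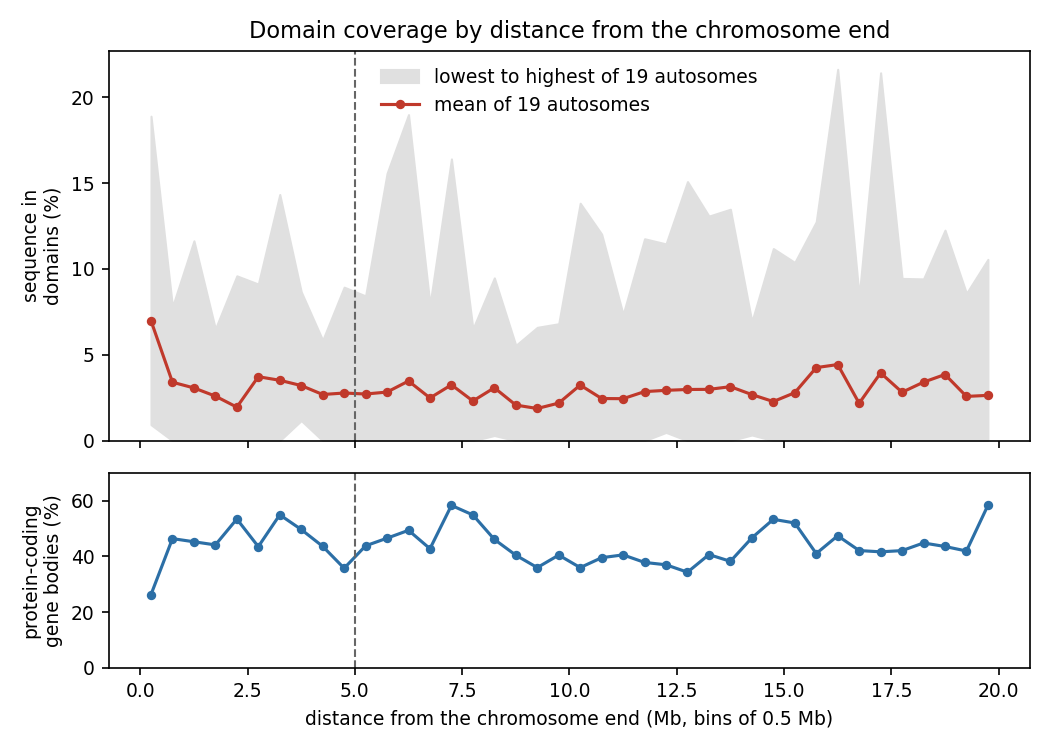
Upper panel, share of sequence in domains (%) by distance from the chromosome end in bins of 0.5 Mb (line, mean of 19 autosomes; grey, lowest to highest), with a dashed line at 5 Mb. Lower panel, share of sequence in protein-coding gene bodies (%). The last bin has the highest mean of domain sequence, 6.98%, and 26.3% in gene bodies.

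Some of the widest domains lay near tips, some lay in genes, and some did neither. The widest, 53.1 kb (chr4:156130501-156183600), was also the domain nearest the end of chromosome 4. It covered Rnf223, a RING finger gene, completely and 56.8% of Agrn, which encodes agrin, the organiser of the neuromuscular junction. The domain ended 15.8 kb before Isg15. A domain of 50.6 kb (chr1:192001351-192051900) lay inside Traf5, an adaptor of TNF receptors, and covered 53.0% of it. Near the tip of chromosome 15, domains of 49.95 kb (chr15:103664551-103714500) and 19.1 kb (chr15:103640851-103659900) stood 4.65 kb apart in the stretch between Glycam1 and Mucl2, without an annotated gene. On chromosome 7, a domain of 40.4 kb (chr7:141704251-141744600) covered 62.7% of Muc2, the secreted mucin of the intestine. Its neighbours Muc6 and Muc5ac had 7.52% and 4.46% covered. On chromosome 6, a domain of 39.5 kb (chr6:146678401-146717850) ended 7.08 kb before Stk38l.

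The remaining 4 of the 10 widest lay in or beside gene families or between genes. On chromosome 5, a domain of 28.2 kb (chr5:151512601-151540800) overlapped the vomeronasal receptor pseudogene Vmn2r-ps26. On chromosome 10, a domain of 27.5 kb (chr10:129353551-129381000) held the olfactory receptor pseudogene Olfr783-ps1 and stood between Olfr782 and Olfr784. A domain of 24.0 kb (chr7:143216551-143240550) lay in Kcnq1ot1, within Kcnq1. One of 20.6 kb (chr5:147793951-147814500) stood between Flt1 and Pomp.

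Most domains at the ends lay outside protein-coding genes. Of the 810, 607 (74.9%) met none. The median distance of these 607 from the nearest such gene was 67.7 kb, and 253 of them were more than 100 kb away. Domains between annotated genes of any kind made up 62.5% at the ends and 67.8% elsewhere on the autosomes. Those wholly inside a protein-coding gene made up 23.2% and 18.7%, and those across a gene boundary 1.85% and 1.73%. Another 8.52% met a long noncoding RNA gene but no protein-coding gene (7.68% elsewhere), and 2.47% met pseudogenes only (3.17%). The 15 domains across a gene boundary at the ends had a median width of 2.10 kb, against 5.85 kb for the 432 elsewhere.

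The pooled ends held more protein-coding genes per Mb than the rest, and protein-coding bodies were similarly poor in domains at the ends and elsewhere. There were 11.5 protein-coding genes per Mb at the ends and 8.42 in the rest, and their bodies took 44.3% and 40.7% of the sequence. The share in gene bodies was higher at the end than in the rest of the same chromosome on 13 of 19 autosomes. Single ends held from 4 protein-coding genes, on chromosome 17, to 162, on chromosome 10, so not every end was rich in genes. Inside these bodies, 1.74% of the sequence at the ends lay in domains, against 1.84% in the rest. Outside them the shares were 4.70% and 5.94%. The ends of chromosomes 18, 17 and 13, with 18.5 to 22.6% of sequence in protein-coding genes, had 4.58%, 6.19% and 4.38% in domains. Those of chromosomes 14, 11 and 16, with 64.4%, 62.1% and 55.0% in genes, had 4.12%, 0.843% and 1.82%. The ends of chromosomes 7 and 5, with 53.0% in genes each, had 4.11% and 3.88%. Gene-rich ends thus ranged from the lowest share of all to shares near those of chromosomes 18 and 13, as the plot of gene content against domain share shows.

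**Figure D5:**
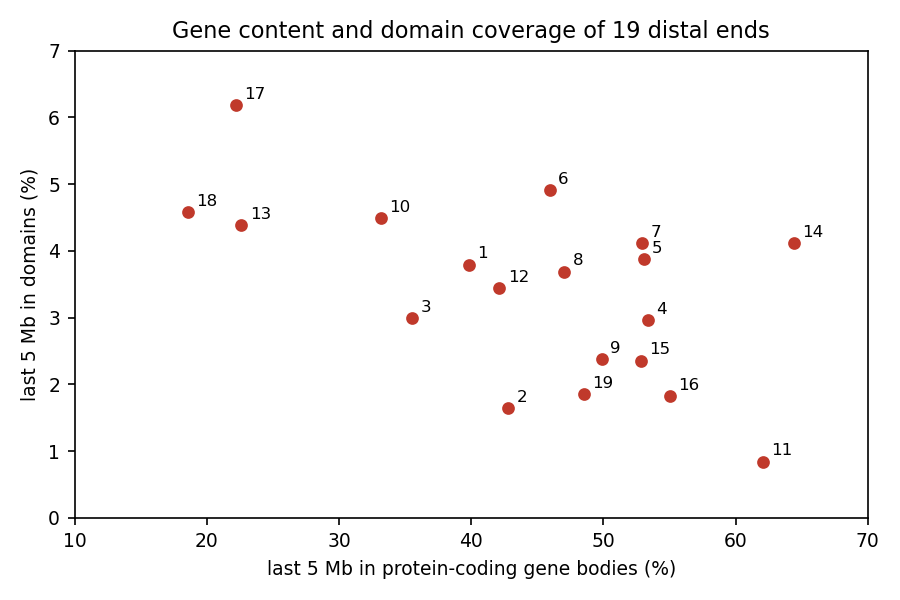
Share of the last 5 Mb in domains (%) against its share in protein-coding gene bodies (%), 1 point per autosome, labelled by chromosome. Chromosome 17 is highest at 6.19% and chromosome 11 lowest at 0.843%, and chromosome 14 combines 64.4% in genes with 4.12% in domains.

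Of 1091 protein-coding genes with sequence in the last 5 Mb, 118 (10.8%) met a distal-end domain by at least 1 base. The background over all autosomal protein-coding genes was 13.9%. The share at the end was below that in the rest of the same chromosome on 9 of 19 autosomes. The lower pooled share was thus not general to the ends. The genes that met a domain were long, with a median body of 83.0 kb against 11.7 kb for the others. Of the 118, 85 met a single domain. At least 50% of the body was covered in 9 genes (0.825%), near the background of 0.642%. Beside Rnf223, Agrn, Traf5 and Muc2, the 9 were Vmn2r85 (56.7%), Zfp972 (51.8%), and the gene models Gm7579 (73.6%), LOC108167320 (71.2%) and Gm40460 (55.2%).

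Genes with the most covered sequence after Traf5 (50.6 kb) and Muc2 (40.4 kb) were mostly long genes with several separate domains. Chromosome 14 had 3 of the 10, side by side. Itgbl1, an integrin beta-like gene, had 9 domains over 35.7 kb (11.2% of its body), and the neighbouring Fgf14, a regulator of sodium channels, had 10 domains over 34.95 kb (4.97%). Nalcn, the sodium leak channel, had 6 domains over 20.1 kb (5.72%). Kcnq1 had 24.9 kb covered in 2 domains that stood 1.05 kb apart. Far2, a fatty acyl-CoA reductase gene on chromosome 6, had 24.2 kb in 5 domains (17.8%). Ccdc7b, near the tip of chromosome 8, had 24.0 kb in 5 domains (20.6%). Agrn, also among the 10, had 18.3 kb covered by 1 domain.

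Among other autosomes, the gene with the most covered sequence was Zfp972 on chromosome 2 (11.7 kb, 2 domains) and Negr1 on chromosome 3 (11.3 kb, 4 domains, 1.49% of the body). On chromosome 5 it was Mtus2 (15.8 kb), on 12 Ptprn2 (12.3 kb), and on 18 Dok6, a docking protein of receptor kinases (17.7 kb, 5 domains). Zfp445 led chromosome 9 with 11.1 kb in 2 domains (29.3%), and Vmn2r87 led chromosome 10 with 7.20 kb (28.2%). Igsf5 led chromosome 16 (2 domains, 5.76% of the body) and Atrnl1 chromosome 19 (6.15 kb, 4 domains). Smaller values were those of Timp2 on chromosome 11 (4.50 kb) and Fam186a on 15 (2.25 kb). On chromosome 3, 6 of only 14 protein-coding genes met a domain (42.9%, against 14.8% in the rest of that chromosome). This was the highest share of the 19 ends, and the lowest was 2.47% on chromosome 10 (4 of 162).

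On 13 of 19 autosomes the domain nearest the tip lay between annotated genes, and on 4 it met a protein-coding gene (chromosomes 4, 6, 9 and 12). On 5 autosomes, 10 domains lay beyond the last protein-coding gene. Chromosome 5 had 4 of them past Rfc3, a subunit of the clamp loader of DNA replication, chromosome 14 had 2 past Fgf14, chromosome 19 had 2 past Csf2ra, chromosome 1 had 1 past Cr2 and chromosome 10 had 1 past Vmn2r87. On chromosome 13 the last domain, 0.750 kb wide, lay 112 kb from the end, between BC147527 (0.157 kb away) and Tcstv3 (7.11 kb), a gene known from the 2-cell stage. On chromosome 19 the last domain was 14.3 kb wide and held the pseudogene Gm20762. On chromosome 9 it overlapped the model LOC108167320, and on chromosomes 6 and 12 it lay inside Bicd1 and Tmem196. The last protein-coding gene of the chromosome itself met a domain on 3 of 19 autosomes, namely Vmn2r87 on 10, Tmem196 on 12 and Fgf14 on 14.

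The last domain of the other autosomes lay beside the following genes. On chromosome 2 it stood between Gm40035 and Gm14496 and was 7.35 kb wide, on chromosome 3 between Rpe65 and Wls (2.85 kb), and on chromosome 7 between Ccnd1 and Tpcn2 (2.55 kb). On chromosome 8 it was 2.15 kb from 2610044O15Rik8, on chromosome 11 it stood between Ptchd3 and Gm9631 (7.35 kb), and on chromosome 16 it was 5.52 kb from Zbtb21. On chromosome 17 it lay in the noncoding RNA gene Gm1976, before Gm20939, and on chromosome 18 it stood between Tmx3 and Gm45871 (4.50 kb). On chromosome 15 it followed the wide pair described above, 81.8 kb before Mucl2.

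Between domains lay gaps with a median of 46.5 kb (40.4 kb between autosomal domains elsewhere), from 0.900 kb upward. Gaps over 500 kb numbered 19 of 791 and contained 335 of the 1091 protein-coding genes whole. The widest, 2319 kb on chromosome 11 (chr11:118388401-120706950), held 54 protein-coding genes, the largest of them Rbfox3, Rptor, Rnf213 and Tbc1d16. The next, 1645 kb on chromosome 15 (chr15:101996101-103640850), held 50, among them Atf7, Nckap1l, Sp1 and Cbx5, which encodes HP1 alpha, a reader of H3K9 methylation. That gap contained the whole Hoxc cluster. On chromosome 5, 1233 kb free of domains held 8 genes, led by Fry, Pds5b, N4bp2l2 and Brca2. On chromosome 2, 1106 kb held 37 genes, among them Zbtb46, Myt1 and Prpf6. On chromosome 6, 993 kb held 7 genes, led by Tmtc1, Dennd5b, Ipo8 and Caprin2.

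Gene families at the ends differed in how domains were placed. Of 85 olfactory receptor genes and pseudogenes at the ends, 3 met a domain (3.53%, against 3.90% elsewhere). On chromosome 10, the stretch with 69 of them (chr10:128989914-130211128) nevertheless held 28 domains over 9.48% of its sequence, which met only the pseudogenes Olfr778-ps1 and Olfr783-ps1. The 14 on chromosome 7 (chr7:140466203-140722212) had 10 domains over 12.4% of the stretch, and only Olfr53 was met (11.9% of its body). Of 7 vomeronasal genes, 3 met a domain, namely Vmn2r85, Vmn2r87 and Vmn2r18, against 47 of 347 elsewhere (13.5%). Of 50 immunoglobulin heavy variable segments on chromosome 12, 2 met a domain (4%, against 4.51% of 133 elsewhere), Ighv8-10 and Ighv8-11, while 16 domains covered 7.46% of the stretch that holds them. In the olfactory and immunoglobulin stretches, most domains thus lay outside the listed genes. Some of these are short, such as Ighv8-10 (0.301 kb) and Olfr783-ps1 (0.462 kb), and the placement of domains was not set against gene length.

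The keratin and Hox clusters of chromosome 15 were nearly free of domains, as was the sequence around them. The stretch from 1 to 5 Mb before the end of that chromosome, which holds both clusters, had 0.581% in domains. A low share was thus not particular to these families. The 27 keratin genes and pseudogenes spanned chr15:101348315-102032026, of which 0.527% lay in 3 domains, and only Krt78 was met (2.37% of its body), against 1 of 28 keratin genes elsewhere. The 9 Hoxc genes (chr15:102921131-103036856) held no domain, and none of 30 Hox genes elsewhere met one. None of 16 ribosomal protein genes and pseudogenes met a domain, against 6.90% of 348 elsewhere. Of 21 zinc finger genes, 2 met a domain (9.52%, against 16.1% elsewhere), namely Zfp972 and Zfp445. Of 21 solute carrier genes, 2 did (9.52%, against 16.7% elsewhere), Slc6a20b (7.36% covered) and Slc35f3 (1.57%). None of 3 cytochrome P450 genes (38.2% of 131 elsewhere) and none of 2 apolipoprotein or serpin genes (9.80% of 102 elsewhere) met a domain, and no protocadherin gene lay at an end.

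The imprinted genes of distal chromosome 7 lie at this end. Of 22 listed genes, 5 met a domain (22.7%), where the background over all annotated autosomal genes was 11.8%, and 11 domains covered 5.68% of the stretch that holds them (chr7:142575530-143848410). They were Tnfrsf23 (33.4% covered), Tnfrsf22 (31.9%), Kcnq1ot1 (29.8%), a noncoding RNA that silences neighbouring genes on the paternal chromosome, H19 (28.5%), and Kcnq1 (7.78%), which is met by the same 2 domains as Kcnq1ot1 within it. Igf2, Ins2, Ascl2, Cdkn1c and Phlda2 met none.

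Of 648 long noncoding RNA genes at the ends, 66 (10.2%) met a domain, against a background of 13.4%. Apart from Kcnq1ot1, the most covered sequence was in Gm38475 on chromosome 6 (15.0 kb in 2 domains), Gm46072 on chromosome 8 (13.7 kb in 3) and Gm30948 on chromosome 12 (13.5 kb in 2). Of 307 pseudogenes, 17 met a domain (5.54%, against 9.22% elsewhere). None of 57 miRNA hairpins at the ends met a domain, and 11 of 862 elsewhere did. Over all 2270 annotated genes at the ends, 209 (9.21%) met a domain, where the background was 11.8%. Genes chosen for naming in this paragraph were picked after their values were seen.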

How the data were processed

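H4K20me3 ChIP-seq was made from 12 libraries of mouse embryonic stem cells. Per the labels' protocols, each immunoprecipitation took 24 μg of mouse chromatin, with Drosophila chromatin (1.5 μg) as a spike-in. The deposited file is 1 list of 3 columns (chromosome, start, end) made by the authors with RSEG, which segments the genome for broad marks, according to its name. Its settings and input libraries are not given in the sources used. The submitters' processing notes list bedtools, deepTools, SAMtools 1.1 and Bowtie2 2.3.4.1 without a role, and mm10 among the builds. Boundaries of all 810 domains lie on a grid of 150 bases, so widths are no finer than that. Depth is unknown here.

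Starts were counted from 1. Chromosome lengths are those of mm10, entered by hand. No gene or domain ended beyond them. Genes came from a RefSeq table of GRCm38.p6 (46710 autosomal genes, 20556 protein-coding). Genes starting before 3 Mb were not used. Promoter sequences came from RefSeq on the same assembly, and 887 of the 1091 protein-coding genes had one. Overlap means at least 1 base. No test was run, since the list has no samples, and the 4 times were not compared. Overlap counting was tested on simulated data. Named genes are the leading and last gene of each end, the 10 widest domains, the 5 widest gaps, genes at least 50% covered and up to 4 per list. A few genes chosen by this rule are not reported here. The members and lists were chosen with earlier results of these data known. Python 3.11.15, numpy 2.4.6, pandas 2.3.3 and matplotlib 3.10.9 were used.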

Additional observations from a re-analysis of the deposited data

How the results depend on the processing

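With 1 list and no replicates, a share or median was taken as moved when it changed by more than the SD between autosomes, and a count when it changed by more than 1.5 times. The limit of 5 Mb sets the counts: the last 2 Mb held 364 domains and 42 protein-coding genes that met one, and the last 10 Mb held 1473 and 232. The last 2 Mb had a lower covered share than the rest on 9 autosomes, not 15, so that comparison depends on the width of the end. Only domains at or above the median width of the list left 388 domains, a median width of 4.50 kb and 65 protein-coding genes. Counting genes at least 50% covered gave 9, and counting all annotated genes gave 209. In the other 142 of 152 combinations of result and setting, values stayed within these limits. They included the end set at the last gene or domain, domains closer than 5 kb merged, and each chromosome left out in turn. Most combinations left out 1 of 19 chromosomes, which can change a count only a little, so this tally is no measure of robustness. The SD of the covered share between autosomes was 1.34 percentage points. That is wider than the difference between the ends (3.39%) and the rest (4.27%), so this limit cannot decide on that difference. The last 1 Mb, added after the data were seen, had 4.96 to 5.46% in domains with a chromosome left out. No paired analysis was possible because the list names no sample.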
